A study of Mus musculus with 10 samples.

Results

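The ATP-binding cassette (ABC) transporter genes were taken as the protein-coding genes of the count table whose symbols run from subfamily A to subfamily G (Abca to Abcg followed by a number), without Abca1 and Abcg1. This gave 48 genes of the 56748 in the table. Their transcripts were measured by poly-A selected RNA-seq in 5 samples of microglia, the macrophages that reside in brain tissue, and in 5 samples of hemi brain, called bulk brain here. The microglia samples were CD11b-positive cells sorted from mouse brain, 400000 cells each, and the bulk brain samples hold every brain cell class. All mice of both groups were young C57BL/6 males, no treatment is named, and all 10 libraries carry the same batch label. The CD11b gate also takes in other myeloid cells, and whether each sample was a separate mouse is not stated. P-values therefore reflect sample-to-sample spread, part of which may be technical.

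ABC proteins bind and hydrolyse ATP at a pair of conserved cassettes and, in most subfamilies, use that energy to move a substrate across a membrane. Subfamily A moves lipids, subfamilies B, C and G include the pumps that carry drugs and conjugates out of cells, and subfamily D serves peroxisomes and lysosomes. Subfamilies E and F have no membrane part and act on ribosomes. In brain the family is best known from the endothelium, where efflux pumps form part of the blood-brain barrier, and from the lipids of myelin.

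Library totals were 25087489 to 28514509 counts for microglia and 25845049 to 34709215 for bulk brain. Levels are given as CPM, counts scaled to a common library total after correction for composition by TMM, a trimmed mean of gene ratios. The labelled cell type was checked with 8 microglia markers, which summed to 29202 to 30291 CPM in sorted cells and to 211 to 234 CPM in tissue. Markers of border macrophages, which also carry CD11b, rose too, with 6 of 6 higher and sums of 466 to 601 CPM against 8.75 to 11.3 CPM. Of 6 monocyte and neutrophil markers, the 4 tested were higher (sums 33.0 to 42.5 CPM against 0.468 to 1.16 CPM). Of the dissociation response genes, 8 of 8 were higher as well, with sums of 15464 to 18669 CPM against 247 to 355 CPM. Neuronal markers summed to 3.86 to 6.13 CPM in sorted cells and endothelial markers to 85.8 to 116 CPM, against 4232 to 4839 CPM and 330.1 to 418 CPM in bulk brain. Of the endothelial sum in sorted cells, 53.1 to 57.8 CPM came from Slc2a1 alone. It kept 73.0% of its bulk brain level, and the next highest endothelial marker, Cdh5, kept 33.8%. The part of these other cells and of the sort in the results below was not tested. Bulk brain replicates 1 and 2 stood apart from replicates 3 to 5, and the results below that change with them are given for both sets.

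Of the 48 genes, 39 passed the low-count filter, and of these 16 were higher and 15 lower in microglia (edgeR quasi-likelihood test, adjusted p under 0.05 over all 18969 genes tested). As shares these were 41.0% higher and 38.5% lower, and 81.0% of all genes tested passed in either direction. Across all genes tested 37.2% were higher and 43.9% lower, so the ABC genes were called about as often as genes at large. At least 2-fold differences were seen in 12 genes upward and 13 downward, where the background shares were 27.8% and 36.8%. The libraries of the groups did not overlap in 30 of the 39 genes, 16 higher (background 34.2%) and 14 lower (40.5%), against 74.7% of all genes tested in either direction. The median log2 difference of the 39 genes was 0.04, that of all genes tested was -0.14, and single genes ran from -9.99 to 7.29. Of the 39, 11 stood under 1 CPM in at least 1 group, and those with a high other group passed the filter through it.

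**Figure D1:**
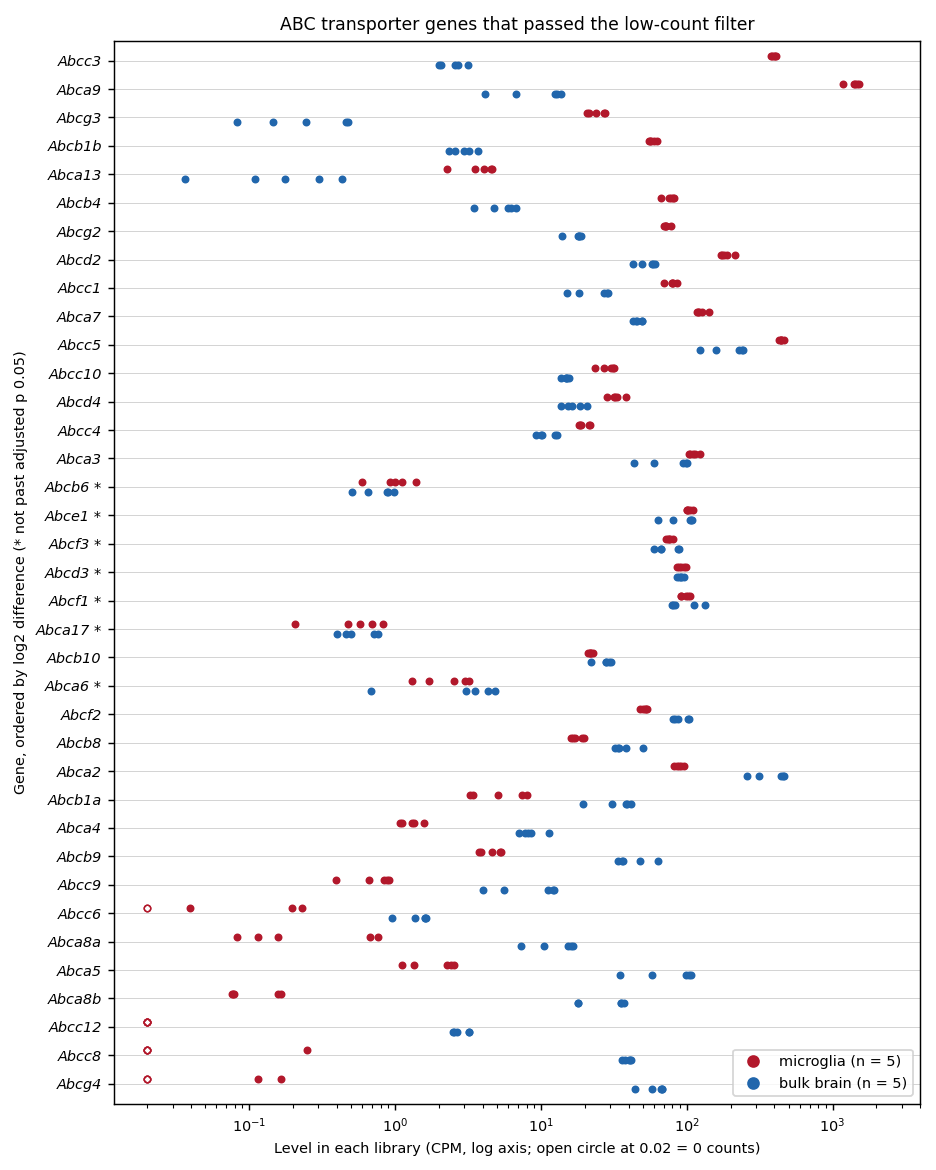
Level in every library of 37 of the 39 ABC genes that passed the low-count filter (x axis, CPM on a log axis; 5 microglia libraries in red, 5 bulk brain libraries in blue; genes on the y axis ordered by log2 difference; open circles at the left stand for 0 counts). Abca9 and Abcc3 sit far above bulk brain at the top, Abcg4 and Abcc8 far below it at the bottom, and the genes marked with an asterisk did not pass the threshold.

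The 9 genes that did not pass the filter held 0 to 49 counts over the 10 libraries together. Abcb11, the bile salt export pump of liver, had no count in any library, which allows at most 0.0238 CPM over the microglia libraries and 0.0178 CPM over bulk brain. Abca16 and Abcb5 had 2 and 3 counts, each in a single bulk brain library. Abca12, which loads lipid into skin lamellar granules, had 2 counts in microglia and 47 in bulk brain, a ratio of 17.6 with a 95% counting interval of 4.598 to 149. Abcc2, a canalicular conjugate pump, had 2 and 28 counts. Abca14, Abca15 and the sterol transporter genes Abcg5 and Abcg8 had 6 to 23 counts in all, and no difference is read from them. Counting intervals and floors pool the libraries of a group, so they describe counting error alone and leave out the spread between samples. Molecular identifiers were not part of these counts, so copies made by amplification are counted as well.

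The lipid transporters of subfamily A split both ways, much as genes at large did. Of 15 genes 11 were tested and 2 did not pass the threshold, with a median log2 difference of -0.48. In microglia 4 were higher (36.36%, against 37.2% of all genes) and 5 lower (45.45%, against 43.9%). Abca9 (ENSMUSG00000041797, chromosome 11, 109991575 to 110059022, minus strand, GRCm39), whose substrate is not settled, stood at 1395, 1432, 1474, 1521 and 1185 CPM in microglia replicates 1 to 5. In bulk brain it stood at 6.74, 4.19, 12.4, 12.98 and 13.8 CPM. Every microglia library lay far above every bulk brain library, by 139.6-fold on the means (log2 difference 7.13 ± 0.36 SE, edgeR adjusted p = 3.7e-09). Per kilobase of gene length, the scale on which genes can be compared, Abca9 was the most abundant ABC transcript of microglia at 174 ± 16.1 CPM per kb (SD, n = 5), and it ranked far lower in bulk brain at 1.25 ± 0.535 CPM per kb.

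Abca7, a phospholipid transporter whose human gene is a risk locus for Alzheimer disease, was at 118 to 142 CPM in microglia against 43.0 to 49.4 CPM in tissue. The groups did not overlap, and the log2 difference was 1.44 ± 0.09 (SE, edgeR adjusted p = 2.5e-08). Abca13, which encodes the longest protein of the subfamily, was low in both groups, at 3.82 ± 0.970 CPM against 0.212 ± 0.158 CPM (n = 5 each), and it was higher in microglia by 4.12 ± 0.47 on the log2 scale (edgeR adjusted p = 6.6e-06). Abca3, which fills lamellar bodies with phospholipid, was at 103 to 124 CPM in microglia. In bulk brain it was at 59.5 and 43.7 CPM in replicates 1 and 2 and at 93.8 to 99.9 CPM in replicates 3 to 5. Its difference of 0.49 ± 0.21 (SE) passed narrowly (edgeR adjusted p = 0.048), and over the alternatives the adjusted p ran from 7.7e-05 to 0.62. Against bulk brain replicates 3 to 5 alone the difference was 0.03 (edgeR adjusted p = 0.62), and the call was lost in 15 of 21 alternatives, among them leaving out any 1 of the 10 libraries.

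Abca2, a lipid transporter of late endosomes that is abundant in myelinating cells, stood at 46.3 ± 11.3 CPM per kb in bulk brain, above every other ABC gene in replicates 3 to 5 (53.3 to 55.3) but below Abcf2 in replicates 1 and 2 (37.5 and 31.0 against 39.8 and 40.6). It stood at 91.1, 88.9, 86.4, 82.0 and 96.5 CPM in microglia and at 313, 259, 444, 455 and 462 CPM in tissue, where replicates 1 and 2 were lowest. All 5 microglia libraries lay below all bulk brain libraries (log2 difference -2.12 ± 0.17 SE, edgeR adjusted p = 2.0e-07). The microglial level was 23.0% of that of bulk brain, above the residue of all 6 oligodendrocyte markers (0.316% to 13.4%). Abca4, the retinoid transporter of photoreceptors, stood at 1.35, 1.09, 1.58, 1.31 and 1.13 CPM against 7.75, 7.13, 8.63, 11.4 and 8.23 CPM (log2 difference -2.73 ± 0.20 SE, edgeR adjusted p = 1.3e-07). Abca17 was at 0.559 ± 0.237 CPM and 0.570 ± 0.162 CPM, and the 95% interval of its log2 difference, -0.86 to 0.80, leaves out a 2-fold change either way.

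Of these genes, 5 lie side by side on chromosome 11 in the order Abca8b, Abca8a, Abca9, Abca6 and Abca5, all on the minus strand and with 0 other protein-coding genes between any neighbours. In microglia only Abca9 of this group was high. Abca8b stood at 0.0795, 0.0776, 0.0771, 0.159 and 0.167 CPM in microglia, that is 2 to 4 counts per library, and at 18.0, 18.0, 35.3, 37.0 and 35.8 CPM in bulk brain. It was 257-fold lower on the means (log2 difference -7.96 ± 0.38 SE, edgeR adjusted p = 2.4e-09). Abca8a, which lies 4771 bases from Abca9, stood at 0.159, 0.116, 0.771, 0.676 and 0.0834 CPM in microglia. Bulk brain held 10.5, 7.33, 16.6, 16.1 and 15.4 CPM of it, so the groups were well apart (log2 difference -5.16 ± 0.54 SE, edgeR adjusted p = 2.7e-06). Abca5, an endolysosomal member at the far end of the row, stood at 2.27, 2.56, 1.12, 1.35 and 2.42 CPM against 58.3, 35.0, 104, 107 and 99.1 CPM (log2 difference -5.38 ± 0.38 SE, edgeR adjusted p = 8.7e-08).

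Abca6, between Abca9 and Abca5, stood at 1.71, 1.32, 2.54, 3.02 and 3.21 CPM in microglia against 3.07, 0.693, 4.84, 3.53 and 4.32 CPM in tissue, and the groups overlapped. Its difference of -0.48 had a 95% interval of -1.45 to 0.50 (edgeR adjusted p = 0.34), and against bulk brain replicates 3 to 5 alone it was -0.99 (adjusted p = 0.0069, edgeR). Without bulk brain replicate 2 alone it was -0.87 (edgeR adjusted p = 0.017), and against replicates 1 and 2 it was 0.22 (edgeR adjusted p = 0.73), so no direction is read for Abca6. The log2 ratio of Abca9 to Abca8a was 10.86 to 13.47 in the microglia libraries and -0.81 to -0.15 in bulk brain (exact two-sided permutation test over 252 splits, p = 0.0079, the smallest that 5 against 5 allows, adjusted p = 0.011 over 11 neighbouring pairs). Since both genes already had groups apart, in opposite directions, this p was fixed in advance and adds no support. The ratio of Abca6 to Abca9 shifted the other way, by -7.55 between the groups (exact permutation adjusted p = 0.011), which follows from the Abca9 levels already given. Adjacent genes of this cluster were thus at widely different ratios in sorted cells and tissue. As close paralogs, Abca8a, Abca8b, Abca6 and Abca9 may share some reads, and how such reads were counted is not stated. The bulk brain levels of all 5 genes were lower in replicates 1 and 2 than in replicates 3 to 5.

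**Figure D2:**
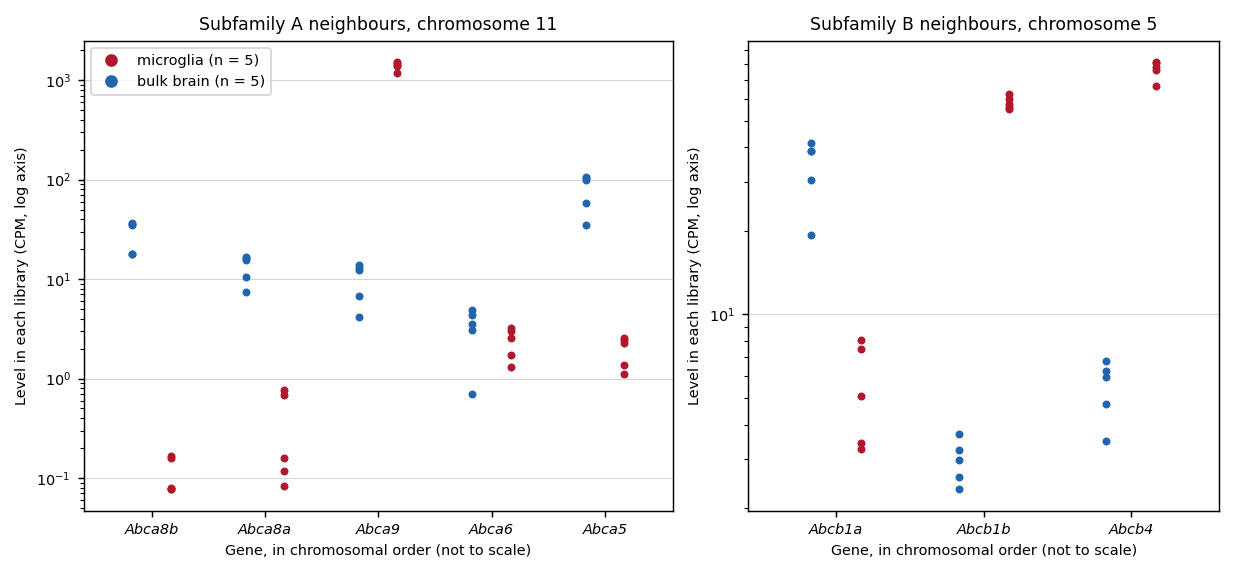
Level in each library (y axis, CPM on a log axis) of the neighbouring subfamily A genes of chromosome 11 (left) and subfamily B genes of chromosome 5 (right), in chromosomal order; microglia in red, bulk brain in blue, 5 libraries each. Abca9 stands at 1185 CPM or more in every microglia library while Abca8a stays under 1 CPM, and Abcb1a and Abcb1b exchange places between the groups.

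The promoter windows of Abca9 and Abca8a are shown because these neighbours differ most between the groups. They come from RefSeq on the build GRCm38.p6 (250 bases before to 50 after the annotated start, 5′ to 3′ on the gene's own strand), at chr11:110168104-110168403 and chr11:110095888-110096187, both on the minus strand. Capitals mark any match, on either strand, to AGGAAGT, the core of PU.1 and other ETS factors, to the E-box CACGTG, to the GC box GGGCGG, to the TATA element TATAAA or to the CCAAT element.

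Abca9: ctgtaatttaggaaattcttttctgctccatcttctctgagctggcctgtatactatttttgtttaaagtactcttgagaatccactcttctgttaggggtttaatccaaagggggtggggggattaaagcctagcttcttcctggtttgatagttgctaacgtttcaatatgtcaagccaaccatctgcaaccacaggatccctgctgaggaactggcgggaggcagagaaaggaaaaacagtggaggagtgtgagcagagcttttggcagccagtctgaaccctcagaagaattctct
Abca8a: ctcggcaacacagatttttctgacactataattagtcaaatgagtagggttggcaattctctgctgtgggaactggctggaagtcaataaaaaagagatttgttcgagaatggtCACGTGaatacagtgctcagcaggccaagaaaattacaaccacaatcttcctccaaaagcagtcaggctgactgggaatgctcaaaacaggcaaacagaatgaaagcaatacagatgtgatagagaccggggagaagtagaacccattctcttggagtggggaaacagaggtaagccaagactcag

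The Abca9 window held none of these letters, and the Abca8a window held a single E-box, a motif present in 7.15% of the 32851 windows of all genes. Which start site the libraries used was not measured. The GC content of the windows was 45.3% and 44.3%, below the median of all windows (52.7%).

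Among the 15 genes grouped here as pumps of drugs, conjugates or bile lipids, 12 were tested. The group includes genes with few known functions, such as Abcc12. Of the 12 tested, 9 were higher and 3 lower, the median log2 difference being 1.46. As shares of the 12 these were 75.0% and 25.0%, against 37.2% and 43.9% of all genes. Abcc3, which exports glucuronide conjugates and bile acids, had with Abca9 one of the 2 largest rises, which did not differ beyond their SE. It stood at 407, 403, 387, 395 and 380.5 CPM in microglia against 2.60, 2.02, 2.07, 3.18 and 2.70 CPM in tissue. The libraries within each group were close together and the groups 157-fold apart (ENSMUSG00000020865, chromosome 11, 94234121 to 94283823, log2 difference 7.29 ± 0.15 SE, edgeR adjusted p = 7.3e-12). Abcg3, a rodent relative of Abcg2, stood at 20.8, 27.8, 21.5, 24.0 and 27.3 CPM against 0.246, 0.462, 0.146, 0.475 and 0.0826 CPM (log2 difference 6.40 ± 0.36 SE, edgeR adjusted p = 1.0e-08). Abcc5, an exporter of cyclic nucleotides and other organic anions, was already abundant in tissue, at 159 and 124 CPM in bulk brain replicates 1 and 2 and at 230.4 to 243 CPM in the rest. Its microglial levels of 465, 441, 433, 444 and 444 CPM were all above them (log2 difference 1.16 ± 0.18 SE, edgeR adjusted p = 6.6e-05).

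Abcg2, the breast cancer resistance protein and a main pump of brain capillaries, stood at 71.8, 78.8, 72.7, 69.6 and 71.4 CPM in microglia against 18.4, 13.9, 17.9, 18.9 and 18.2 CPM in tissue. It was higher in sorted cells by 2.06 ± 0.11 on the log2 scale (edgeR adjusted p = 4.6e-09), while all 8 endothelial markers were lower there, at 9.24% to 73.0% of their bulk brain level. Abcc1, which exports glutathione conjugates and leukotriene C4, rose by 1.75 ± 0.18 (SE, 69.9 to 86.0 CPM against 15.2 to 28.8 CPM, edgeR adjusted p = 2.5e-06). Abcc10 stood at 23.6 to 31.8 CPM against 13.8 to 15.7 CPM (0.95 ± 0.11 SE, edgeR adjusted p = 8.3e-06). Abcc4, which exports cyclic AMP and prostanoids, rose by 0.84 ± 0.13 (SE, 18.3 to 21.7 CPM against 9.34 to 13.03 CPM, edgeR adjusted p = 9.9e-05). The genes of this group that rose thus ranged from under 2-fold to over 100-fold.

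The P-glycoprotein genes moved in opposite directions. The mouse has a pair of genes for this broad drug pump, Abcb1a and Abcb1b, which lie next to Abcb4, the phosphatidylcholine floppase of bile canaliculi, on chromosome 5. Abcb1a, the form of brain capillaries, stood at 8.07, 7.48, 3.28, 3.42 and 5.09 CPM in microglia against 30.6, 19.4, 38.8, 38.7 and 41.4 CPM in tissue. It was lower in all 5 microglia libraries (ENSMUSG00000040584, 8710077 to 8798575, plus strand, log2 difference -2.63 ± 0.31 SE, edgeR adjusted p = 7.2e-06). Abcb1b stood at 56.1, 62.4, 55.1, 59.7 and 57.3 CPM in microglia against 3.23, 2.34, 3.71, 2.58 and 2.97 CPM (ENSMUSG00000028970, 8848147 to 8916315, plus strand, 4.29 ± 0.14 SE, edgeR adjusted p = 1.4e-10). Abcb4 stood at 78.0, 81.3, 66.8, 76.2 and 80.6 CPM against 4.76, 3.49, 6.77, 5.94 and 6.25 CPM (3.82 ± 0.18 SE, edgeR adjusted p = 2.2e-09). Each of these genes had groups that did not overlap.

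The log2 ratio of Abcb1b to Abcb1a was 2.80 to 4.12 in the microglia libraries and -3.90 to -3.04 in tissue, a shift of 6.97 (p = 0.0079 by the same exact permutation, adjusted p = 0.011 over 11 pairs). Here too the p was fixed in advance, because the groups of both genes were already apart in opposite directions. Abcb1b and Abcb4 kept a closer ratio, with a shift of -0.46 in the log2 ratio of Abcb4 over Abcb1b (exact permutation adjusted p = 0.011). The highest microglia library stood at 0.492 and the lowest bulk brain library at 0.558, so the groups did not overlap. The highest bulk brain library stood at 1.196, so bulk brain alone spread more widely than the shift. The Abcb1a level in microglia was 16.2% of bulk brain, and the 8 endothelial markers had a median of 16.2% there. Microglia replicates 1 and 2 had the highest Abcb1a and also the highest endothelial sums, 116 and 109 CPM against 85.8 to 92.0 CPM in the other 3. The part of endothelial RNA in the Abcb1a level was not tested. Abcb1a and Abcb1b are near-identical over long stretches, so their split of reads is uncertain.

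The windows listed for these neighbours and for Abcg3 are shown, for a gene that was lower and 3 that were higher. They are from RefSeq on GRCm38.p6, at chr5:8566841-8567140, chr5:8797897-8798196 and chr5:8893471-8893770 on the plus strand and chr5:104982668-104982967 on the minus strand, with motif matches in capitals as above.

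Abcb1a: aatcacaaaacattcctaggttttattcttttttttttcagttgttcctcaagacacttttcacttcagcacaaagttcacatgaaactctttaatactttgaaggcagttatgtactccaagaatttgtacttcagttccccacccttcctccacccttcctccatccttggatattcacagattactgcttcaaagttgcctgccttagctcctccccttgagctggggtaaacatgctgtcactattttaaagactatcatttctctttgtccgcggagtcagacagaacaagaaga
Abcb1b: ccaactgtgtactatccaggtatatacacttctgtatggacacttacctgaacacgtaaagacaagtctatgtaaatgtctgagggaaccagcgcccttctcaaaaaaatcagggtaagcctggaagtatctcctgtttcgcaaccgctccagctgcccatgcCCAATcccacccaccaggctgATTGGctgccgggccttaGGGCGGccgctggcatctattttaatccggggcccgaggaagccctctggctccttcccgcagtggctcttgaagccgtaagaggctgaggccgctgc
Abcb4: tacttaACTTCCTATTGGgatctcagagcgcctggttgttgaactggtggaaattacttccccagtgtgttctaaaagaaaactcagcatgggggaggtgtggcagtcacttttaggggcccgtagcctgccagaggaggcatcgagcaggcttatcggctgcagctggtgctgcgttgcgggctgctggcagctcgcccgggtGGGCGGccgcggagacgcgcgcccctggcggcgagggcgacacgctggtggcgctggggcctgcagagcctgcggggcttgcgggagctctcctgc
Abcg3: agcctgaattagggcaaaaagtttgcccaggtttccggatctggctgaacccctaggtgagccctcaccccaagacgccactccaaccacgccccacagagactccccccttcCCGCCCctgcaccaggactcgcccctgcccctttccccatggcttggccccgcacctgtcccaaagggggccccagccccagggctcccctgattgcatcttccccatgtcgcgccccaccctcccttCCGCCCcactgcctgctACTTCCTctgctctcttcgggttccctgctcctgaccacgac

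The Abcb1a window held no match and had 2 CpG dinucleotides at a GC content of 40.3%. It begins at 8566841, while the counted gene starts at 8710077 on GRCm39. For Abcb1b and Abcb4 the windows begin at 8797897 and 8893471, against gene starts of 8848147 and 8943717, a clearly smaller gap. The Abcb1a window may thus lie well upstream of the start as counted, which limits its comparison with the neighbours. The Abcb1b window held a GC box and 2 CCAAT matches with 12 CpG dinucleotides, and those of Abcb4 and Abcg3 each held the letters of the ETS core and GC box matches, with a CCAAT match beside the ETS core in Abcb4. A window was found for 37 of the 48 genes. The ETS core lay in a window of 5 of the 11 genes that were higher (Abca13, Abcb4, Abcc10, Abcg2 and Abcg3) and of 0 of the 11 that were lower, while 10.7% of all 27025 genes had it. For the GC box the counts were 8 of 11 and 6 of 11 (38.2% of all genes), for CCAAT 5 and 2 (41.1%), for the TATA box 1 and 1 (15.7%) and for the E-box 1 and 2 (8.09%). The windows of the 11 lower genes include that of Abcb1a, which may lie away from the start as counted. A match is only a match of letters, and the motifs were chosen with the directions known.

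The remaining 2 efflux genes that were lower were scarce in tissue as well. Abcc6, whose loss causes soft tissue calcification, stood at 0.0942 ± 0.113 CPM in microglia against 1.44 ± 0.287 CPM in tissue (n = 5 each, log2 difference -3.87 ± 0.66 SE, edgeR adjusted p = 1.7e-04; -4.49 without microglia replicate 2). Abcc12, a subfamily C gene with few known functions, had 0 counts in the microglia libraries and 3.23, 2.66, 2.55, 2.52 and 3.25 CPM in the tissue libraries. It was at least 120.3-fold lower when the microglia group is set to a floor of 3 counts in all (edgeR adjusted p = 1.0e-06).

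Of subfamily D, the peroxisomal Abcd2 and the lysosomal Abcd4 were higher in microglia, and Abcd3 did not pass the threshold. Abcd2, which carries fatty acyl-CoA into peroxisomes, stood at 174, 215, 171, 179 and 189.9 CPM in the microglia libraries. It stood at 49.5, 43.2, 57.5, 59.0 and 60.3 CPM in tissue, with no overlap between the groups (log2 difference 1.79 ± 0.12 SE, edgeR adjusted p = 4.2e-08). Abcd3, which takes up branched-chain acyl-CoA and bile acid precursors, stood at 86.2 to 99.0 CPM and 86.6 to 96.4 CPM, with a 95% interval of -0.15 to 0.19 around a difference of 0.02, and this difference was -0.15 with median-of-ratios scaling and -0.16 with library size alone. Abcd4, needed to release cobalamin from lysosomes, was higher by 0.95 ± 0.14 (SE, 28.5 to 38.4 CPM against 13.8 to 20.8 CPM, edgeR adjusted p = 4.1e-05).

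The genes that work with these transporters went both ways, much as genes at large did (37.2% of all genes higher and 43.9% lower). Of 11 genes for peroxisomal import and beta-oxidation, 4 were higher (36.36%) and 5 lower (45.45%), with a median log2 difference of -0.11. Elovl1, which elongates very long chain fatty acids, was higher (57.9 ± 2.51 CPM against 15.7 ± 3.21 CPM), and Slc27a2, a very long chain acyl-CoA synthetase, was lower, with 0 counts in microglia against 6.19 ± 0.644 CPM. Pex19, the chaperone that brings peroxisomal membrane proteins to the organelle, was lower as well (36.9 ± 4.19 CPM against 77.9 ± 5.42 CPM). Of 7 cobalamin genes, 2 were higher (28.6%) and 3 lower (42.9%). Tcn2, the plasma cobalamin carrier transcobalamin, had the largest rise (353 ± 9.55 CPM against 20.9 ± 4.13 CPM), and its cellular receptor gene Cd320 was lower (6.47 ± 0.997 CPM against 14.5 ± 4.84 CPM). Lmbrd1, the lysosomal partner of Abcd4, was lower (129 ± 9.34 CPM against 205 ± 38.3 CPM), opposite to Abcd4 itself.

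Of the mitochondrial and lysosomal members of subfamily B, Abcb8, Abcb9 and Abcb10 were lower in microglia and Abcb6 did not pass the threshold. Abcb9, a lysosomal peptide transporter, stood at 5.32, 4.65, 3.89, 3.78 and 5.25 CPM in microglia against 48.1, 63.2, 36.8, 36.4 and 34.0 CPM in tissue (log2 difference -3.25 ± 0.21 SE, edgeR adjusted p = 3.0e-08). In contrast to most genes of the family that were lower, its bulk brain level was highest in replicates 1 and 2. Abcb8, a mitochondrial inner membrane transporter, was at 16.0 to 19.9 CPM against 32.5 to 50.5 CPM (-1.10 ± 0.14 SE, edgeR adjusted p = 1.6e-05). Abcb10, which supports early heme synthesis, stood at 20.9 to 22.8 CPM against 22.3 to 30.5 CPM with groups that overlapped (-0.33 ± 0.11 SE, edgeR adjusted p = 0.014). This call was lost with protein-coding genes alone in the fit (-0.22, edgeR adjusted p = 0.079) and against bulk brain replicates 1 and 2 alone (-0.28, adjusted p = 0.079).

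Abcb6, a porphyrin transporter, was low throughout (1.01 ± 0.289 CPM and 0.789 ± 0.199 CPM, interval -0.33 to 1.02). Of 17 iron-sulphur and heme genes, 5 were higher (29.4%, against 37.2% of all genes) and 6 lower (35.3%, against 43.9%), with a median of -0.03. Slc25a37, mitoferrin, which Abcb10 is known to stabilise, was higher (340.2 ± 4.47 CPM against 31.1 ± 7.30 CPM). Lyrm4, which supports cluster assembly, was lower (4.57 ± 1.18 CPM against 18.5 ± 7.21 CPM).

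The soluble ATPases were close to level, apart from Abcf2. Abce1, which splits ribosomes after termination, stood at 101, 111, 103, 100.4 and 106 CPM in microglia against 80.6, 63.3, 105, 108 and 108 CPM in tissue (difference 0.17, 95% interval -0.15 to 0.48, edgeR adjusted p = 0.30). Abcf1, an initiation factor partner, stood at 105, 102, 99.7, 92.0 and 91.6 CPM against 113, 134, 83.3, 80.2 and 79.1 CPM (interval -0.33 to 0.34). Abcf3 lay at 72.4 to 80.4 CPM and 59.7 to 88.3 CPM (interval -0.23 to 0.30). In these 3 genes bulk brain replicates 1 and 2 lay on the opposite side of the microglial mean from replicates 3 to 5. The sign of all 3 small differences turned with median-of-ratios scaling, to -0.01, -0.16 and -0.13. Against bulk brain replicates 3 to 5 alone Abce1 was lower by -0.19 (edgeR adjusted p = 0.0011) and Abcf1 higher by 0.13 (edgeR adjusted p = 0.047), and against replicates 1 and 2 alone Abce1 was higher by 0.45 (edgeR adjusted p = 0.0044), Abcf1 lower by -0.41 (edgeR adjusted p = 0.0013) and Abcf3 lower by -0.29 (edgeR adjusted p = 0.0073).

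Abcf2 was lower in microglia in all comparisons run, at 52.3, 47.9, 52.3, 53.1 and 50.3 CPM against 102, 104, 80.2, 82.7 and 87.5 CPM (log2 difference -0.84 ± 0.10 SE, edgeR adjusted p = 8.4e-06). Of 9 genes that recycle ribosomes or act on initiation factor 2, 5 were higher (55.6%, against 37.2% of all genes), 0 were lower (43.9% of all genes) and 4 did not pass the threshold, with a median of 0.25. Gcn1, the ribosome-bound activator of the kinase Gcn2, had the largest rise (337 ± 14.9 CPM against 90.9 ± 17.4 CPM), and Pelo, which works with Abce1 on stalled ribosomes, did not pass the threshold (1.42 ± 0.153 CPM against 1.93 ± 0.892 CPM).

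The sulfonylurea receptor gene Abcc8 and the neuronal sterol transporter Abcg4 were nearly absent from sorted cells, and the other sulfonylurea receptor gene, Abcc9, was low there. Abcc8, the regulatory subunit SUR1 of ATP-sensitive potassium channels (ENSMUSG00000040136, chromosome 7, 45753947 to 45829457, minus strand), had 6 counts in microglia, all in replicate 5 (0.250 CPM there). Bulk brain held 38.1, 36.2, 41.9, 40.7 and 40.3 CPM, a ratio of 826 with a 95% counting interval of 379 to 2252 (edgeR adjusted p = 8.5e-09). That ratio rests on replicate 5: the other 4 libraries had 0 counts, and leaving it out puts Abcc8 at least 1338-fold lower, with a floor of 3 counts over those libraries. Kcnj11, the channel pore that SUR1 regulates, lies between Abcc6 and Abcc8 on chromosome 7 and was as scarce (0.0322 ± 0.0441 CPM against 41.0 ± 3.55 CPM). Abcc9, the SUR2 subunit found in pericytes and smooth muscle, stood at 0.914, 0.892, 0.848, 0.398 and 0.667 CPM against 5.59, 4.01, 11.2, 12.2 and 12.3 CPM (log2 difference -3.60 ± 0.39 SE, edgeR adjusted p = 3.7e-06). Its microglial level was 8.19% of bulk brain, and its pore gene Kcnj8 kept 2.68%. The 6 mural cell markers kept 2.55% to 72.4% (median 6.52%). The 72.4% belongs to Tagln, which did not pass the low-count filter, and the highest of the 5 tested was Acta2 at 20.8%.

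Abcg4, a sterol exporter of neurons and astrocytes, had 7 counts in microglia, 3 in replicate 2 and 4 in replicate 5, and 57.5, 44.2, 67.6, 66.4 and 67.9 CPM in bulk brain. The ratio was 1087 with a 95% counting interval of 528 to 2705 (log2 difference -9.99 ± 0.45 SE, edgeR adjusted p = 1.5e-09). Without microglia replicate 5 the log2 difference was -10.81 (edgeR adjusted p = 9.0e-09), and the counting intervals of Abcg4 and Abcc8 overlapped. The residue of Abcg4 (0.0933% of bulk brain) and of Abcc8 (0.127%) lay within the range of the 6 neuronal markers, 0.0394% to 0.397%, and both lay below the lowest of the 6 astrocyte markers, 0.227%. In bulk tissue and sorted cells alike, fewer cells of a type and less RNA per cell cannot be told apart.

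**Figure D3:**
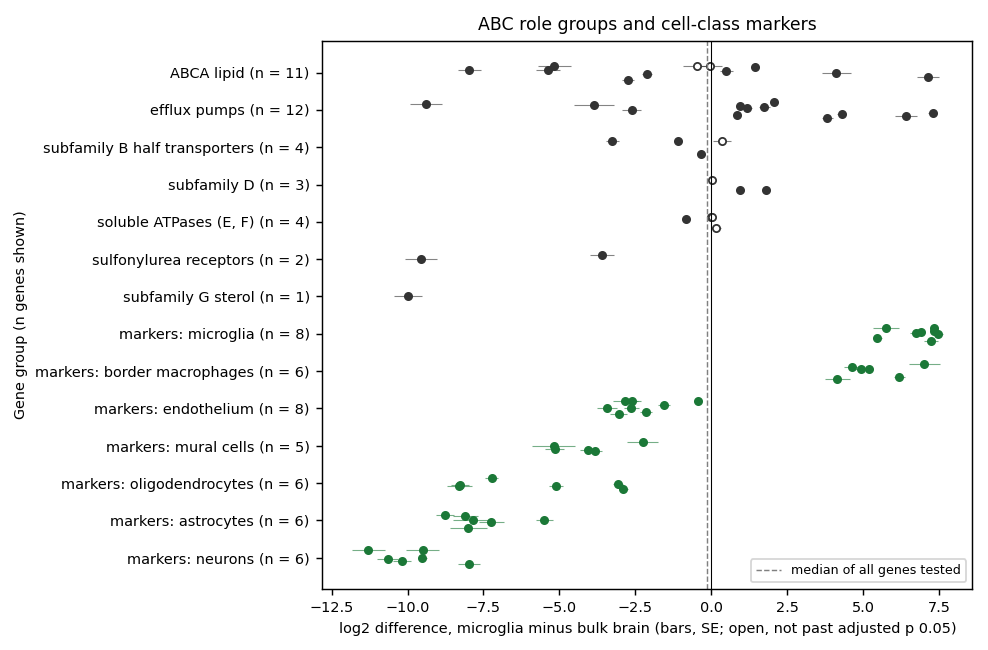
Log2 difference between microglia and bulk brain (x axis; each point a gene that passed the low-count filter, bars SE, open points not past adjusted p 0.05) for the ABC role groups (black) and for cell-class markers (green); the dashed line marks the median of all genes tested at -0.14. Efflux pumps and subfamily A spread over both sides, the subfamily D genes shown lie at or above 0, and the sulfonylurea receptors and Abcg4 lie with the neuronal and mural markers.

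Of the 3 further ABC genes whose symbols fall outside the naming scheme, the antigen peptide transporter genes Tap1 and Tap2 were higher (74.0 ± 2.15 CPM against 3.83 ± 0.762 CPM, and 64.9 ± 3.70 CPM against 6.69 ± 1.76 CPM), and the chloride channel gene Cftr was lower, with 0 counts in microglia against 1.05 ± 0.281 CPM. Glutathione, the co-substrate of several subfamily C pumps, is made and used by 14 listed genes, of which 2 were higher (14.3%, against 37.2% of all genes) and 11 lower (78.6%, against 43.9%) with a median of -1.84. In 11 of the 14, bulk brain replicates 1 and 2 lay above replicates 3 to 5, as 35.0% of all genes did. Ggt5, which cleaves leukotriene C4 and other glutathione conjugates outside the cell, was higher (89.2 ± 3.33 CPM against 3.10 ± 0.835 CPM), as was Gclc, the catalytic subunit of the rate-limiting synthetic enzyme (120.4 ± 5.53 CPM against 60.5 ± 12.8 CPM). Gclm, its modifier subunit, was lower (20.3 ± 2.50 CPM against 73.9 ± 9.77 CPM), and Ggt7 was lower by the largest margin (0.0792 ± 0.0992 CPM against 115 ± 20.9 CPM).

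Listed regulators of ABC genes, transcription factors together with the inhibitor Keap1, went both ways, as genes at large did. Of 17 listed, 14 were tested. Of these 6 were higher (42.9%, against 37.2% of all genes) and 8 lower (57.1%, against 43.9%). Nfe2l2 (NRF2), the regulator of conjugate efflux and glutathione genes, had the largest rise (317 ± 15.2 CPM against 15.9 ± 2.28 CPM), and its inhibitor Keap1 was lower (31.2 ± 1.69 CPM against 48.6 ± 3.88 CPM). The retinoid X receptor gene Rxrg was lower by the largest margin (0.695 ± 0.560 CPM against 15.1 ± 5.07 CPM). Of the oxysterol receptors, Nr1h2 was higher (102 ± 5.84 CPM against 50.3 ± 12.4 CPM) and Nr1h3 lower (1.47 ± 0.528 CPM against 4.88 ± 1.97 CPM). The pregnane receptor Nr1i2, the androstane receptor Nr1i3 and the bile acid receptor Nr1h4 did not pass the low-count filter. Over all 80 partner genes 77 were tested, 26 were higher and 36 lower, against 37.2% and 43.9% of all genes.

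Summed per kilobase of gene length, the 48 genes amounted to 561 ± 18.1 CPM per kb in microglia (530.4 to 577) and 285 ± 20.8 CPM per kb in bulk brain (254 to 300.3). Most of the gap lay in a few genes. Abca9 alone took 31.0% ± 2.06 of the family sum in microglia and 0.429% ± 0.163 in bulk brain, and Abcc3 took 12.3% ± 0.287 and 0.155% ± 0.0245. Subfamily A as a whole made up 38.5% ± 1.96 in microglia and 26.9% ± 5.28 in bulk brain, and the efflux pumps 27.8% ± 1.03 and 12.03% ± 1.88. The soluble ATPases made up 33.4% ± 6.13 of the sum in bulk brain and 14.4% ± 0.302 in microglia. They were the largest group in bulk brain replicates 1 and 2 (38.0% and 41.9%), and subfamily A was the largest in replicates 3 to 5 (30.4% to 30.9%, against 29.0% for the soluble ATPases). These sums were not tested, since the genes were not chosen independently of one another.

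**Figure D4:**
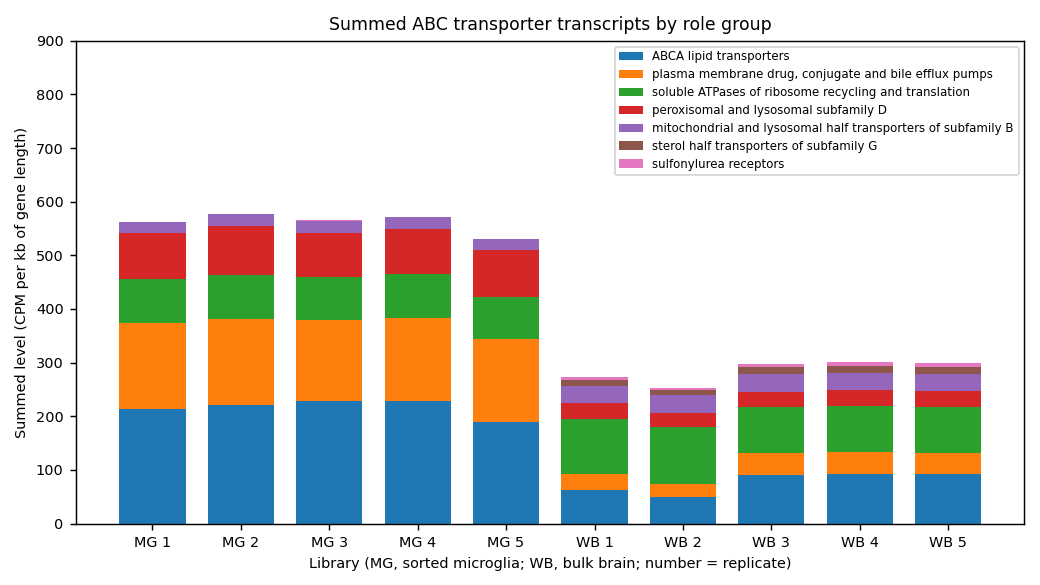
Summed level of the 48 ABC genes in each library (y axis, CPM per kb of gene length, from 0), divided by role group; MG is sorted microglia and WB bulk brain, 5 libraries each. Microglia libraries reach 530.4 to 577 CPM per kb and bulk brain libraries 254 to 300.3, with the subfamily A and efflux segments larger in microglia.

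In order of level per length, microglia were led by Abca9, Abcc3 (69.3 ± 1.95 CPM per kb) and Abcc5 (41.7 ± 1.12), and Abcd2 stood at 31.3 ± 3.01. In bulk brain the order differed between the 2 sets of replicates. In replicates 1 and 2 Abcf2 came before Abca2, Abcf1 (25.55 and 30.4 CPM per kb) and Abcf3 (24.8 and 24.6). In replicates 3 to 5 Abca2 was followed by Abcf2 (31.2 to 34.1 CPM per kb) and Abcc5 (21.6 to 22.8), with Abcf1 at 17.9 to 18.9 and Abcf3 at 16.8 to 18.8. The bulk brain level was also set against the microglial level gene by gene. For the 8 microglia markers it was 0.570% to 2.26% (median 0.749%). Abca9 (0.716%), Abcc3 (0.637%) and Abcg3 (1.16%) fell within that range, and the other 13 genes that were higher in microglia lay above it, from Abcb1b at 5.11% and Abca13 at 5.55% to Abca3 at 71.2%. The border macrophage markers lay at 0.788% to 5.57% on the same scale, so the ranges of the marker classes overlap.

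The split within bulk brain touched many of these genes. Replicates 1 and 2 both lay below replicates 3 to 5 in 20 of the 39 tested genes, where the share among all genes tested was 34.1%, and above them in 7, where it was 35.0%. Subfamily A held 9 of the 20. Against replicates 3 to 5 alone, 16 genes were higher and 17 lower (background 37.9% and 47.4%), and against replicates 1 and 2 alone 18 were higher and 16 lower (background 37.1% and 44.9%).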

How the data were processed

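The authors deposited raw counts by gene for 10 libraries in 1 table, without normalization. The submitters' processing notes name CASAVA, HISAT2 2.2.1, featureCounts 2.0 and the build GRCm39 (mm39). The strand setting and the treatment of reads that fit several genes are not given, so paralogs and overlapping genes may share reads. Per the labels' protocols, messenger RNA was taken on poly-T beads. Each value column carried a sample's label (0 were left unmapped), and symbols, coordinates and lengths were read from the counts table.

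Genes were filtered with filterByExpr by group (18969 kept). After TMM scaling, edgeR 4.0.16 (quasi-likelihood F test, group as the only term, R 4.3.3) gave p-values, adjusted by Benjamini-Hochberg over all genes and called at 0.05. The procedure was tested on simulated data in which few genes changed, in equal numbers up and down. In the real data 81.0% of genes tested passed, so that test cannot speak for the scaling or the error rate here. The SE is the log2 difference divided by the square root of the F statistic, and intervals are 95%. Ratios of neighbouring genes (within 500 kb, 0.5 added to counts) were compared by exact permutation of the 5 and 5 libraries. The genes, role groups and partner lists were chosen with earlier results of these data known. Any ABC gene past the filter could be named. Values in every library were given by rule for the 8 largest rises and 8 largest falls at 5 CPM or more, the most abundant of each role group per length and those with 0 counts in a group, and partner genes were named for the largest rise and fall of each list at 5 CPM or more. Library values of Abca6, Abcb1a, Abce1 and Abca3 and the partner genes Kcnj8, Pex19, Lmbrd1, Pelo, Tap2, Cftr, Gclc, Gclm, Keap1, Nr1h2 and Nr1h3 were added after their values were seen. Promoter windows came from a RefSeq table on GRCm38.p6, matched by symbol, and no coordinates were converted between builds. Alternatives were other scalings and filters, DESeq2 1.42.0, limma-voom (limma 3.58.1), a replicate block, coding genes only, leaving out each library, and, chosen after seeing the data, bulk brain replicates 3 to 5 or 1 and 2 alone. Of the tested ABC genes, 2 are counted in the totals and sums but not reported singly here.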

Additional observations from a re-analysis of the deposited data

Results flagged for a closer look

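In 2 of 77 groups of 5 libraries examined (39 genes in both groups, without the group of Abcc12 that is all 0), a single library stood apart from the rest by Dixon's criterion, which chance alone meets in about 1 of 20 groups. Abcc8 stood at 0.250 CPM in microglia replicate 5, where the other 4 libraries had 0 counts. Abcg2 stood at 13.9 CPM in bulk brain replicate 2, where the other libraries had 17.9 to 18.9 CPM. The cause was not tested in either case.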

How the results depend on the processing

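Of 37 tested genes followed singly, 29 kept their call and direction in each of the 21 alternatives that held them (20 for Abcb6, which the filter of 1 CPM in 5 libraries left out), and the other 8 were Abca3, Abca6, Abca17, Abcb10, Abcd3, Abce1, Abcf1 and Abcf3. The number of ABC genes higher ran from 15 to 18 and lower from 14 to 17. The median log2 difference of all genes tested moved from -0.14 to -0.31 (median of ratios), -0.33 (library size) and -0.85 (no filter); the last includes genes with few counts. Whether same-numbered samples are paired is not stated. Same-numbered libraries had correlations of deviations from -0.021 to 0.010, but sorted cells set against whole tissue cannot exclude a pairing. A fit with the replicate block gave 16 ABC genes higher and 15 lower, and 26 and 34 partner genes. Depth limits the 9 genes under the filter.

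These log2 differences changed sign. With median-of-ratios size factors the sign turned for Abcd3 -0.15, Abce1 -0.0092, Abcf1 -0.16 and Abcf3 -0.13. With library size alone the sign turned for Abcd3 -0.16, Abce1 -0.0175, Abcf1 -0.18 and Abcf3 -0.15. With upper-quartile scaling the sign turned for Abca17 0.0368. With no low-count filter the sign turned for Abcd3 -0.15, Abce1 -0.0070, Abcf1 -0.17 and Abcf3 -0.14. With DESeq2 the sign turned for Abcd3 -0.15, Abce1 -0.0091, Abcf1 -0.16 and Abcf3 -0.13. With protein-coding genes only the sign turned for Abca17 0.0866. Against bulk brain replicates 3 to 5 alone the sign turned for Abcd3 -0.10 and Abce1 -0.19. Against bulk brain replicates 1 and 2 alone the sign turned for Abca6 0.22, Abcd3 -0.11, Abcf1 -0.41 and Abcf3 -0.29. With 1 library left out, the ranges were Abcf1 -0.16 to 0.0428, Abca17 -0.25 to 0.19, Abcd3 -0.11 to 0.0555, Abce1 -0.0853 to 0.19, Abcf3 -0.13 to 0.0635. DESeq2 called Abcd3 lower (adjusted p = 0.017). The 2 subsets of bulk brain libraries were chosen after seeing the data, and the cause of these changes was not tested.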
